A study of Mus musculus with 33 samples.

Results

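Hematopoietic stem cells (HSCs) of old mice were compared after 4 to 6 weeks of nicotinamide riboside (NR) in the drinking water. The comparison used 8 of the 33 libraries of the series, namely 4 of HSCs from NR-treated old mice (O-NR) and 4 of HSCs from untreated old mice (O-WT), chosen by treatment, cell type and cohort as the sample labels give them (cohort 2). Mice of the aging study were C57BL/6 males of 24 to 29 months with no engineered allele, so both groups share sex, strain and this range of ages, and the supplement is the difference that the labels give. The age behind each library is not stated. An NR concentration of 12 mM was stated for the Atm mice of the same study and was not restated for the old mice. HSCs were sorted as lineage-negative c-Kit+ Sca1+ CD34- Flk2- CD150+ bone marrow cells, so the groups are bulk samples of one surface phenotype. RNA with and without poly(A) tails was sequenced, and 8434214 to 14479453 reads per O-WT library and 9022496 to 14117126 per O-NR library were counted on genes. Neither the labels nor the sequencing methods say whether each library was 1 mouse, so p-values measure the spread between these libraries. The question the comparison addresses is which transcripts of old HSCs differ after NR.

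HSCs sit at the top of blood formation, divide rarely, and in old age are more numerous and give fewer lymphoid and more myeloid and platelet cells. NR is a form of vitamin B3. Cells take it up through nucleoside transporters, phosphorylate it with nicotinamide riboside kinase and join it to AMP with NMNAT enzymes to make NAD+, the electron carrier of glycolysis, fatty acid oxidation and the TCA cycle, which sirtuins and poly-ADP-ribose polymerases also consume. Quiescent HSCs rely on glycolysis, keep mitochondrial activity low and are sensitive to errors in protein folding, which chaperones of the cytosol (the heat shock proteins) and of the endoplasmic reticulum (ER) correct.

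The labelled cell type was checked against its markers. *Slamf1*, which encodes CD150, averaged 70.6 ± 16.1 CPM (reads of a gene scaled to the total of the library) over the HSC libraries of cohort 2 when all 24 libraries of its 3 cell types were scaled together (SD, n = 8), while the common lymphoid progenitors (CLPs) and the granulocyte–monocyte progenitors (GMPs) of that cohort had means of 6.24 ± 2.06 and 4.94 ± 1.09. *Procr*, the protein C receptor found on primitive HSCs, had a mean of 84.8 ± 21.1 CPM in HSCs, against 2.07 in CLPs and 1.52 in GMPs. *Il7r* and *Mpo*, which mark CLPs and GMPs, were at means of 3.82 and 3.37 CPM in HSCs. The defining HSC markers were thus present. Transcripts of the 2 antigens that the sort excludes were not at 0. *Cd34* had a mean of 48.3 ± 14.2 CPM in HSCs, against 143 in CLPs and 261 in GMPs, and *Flt3*, which encodes Flk2, had 12.8 ± 3.02 CPM in HSCs, against 443 in CLPs and 24.7 in GMPs. With the 8 HSC libraries scaled by themselves, as in all values that follow, *Slamf1* was at 63.6 to 84.3 CPM in O-WT and 64.8 to 82.7 in O-NR HSCs (log2 difference −0.05 ± 0.12, SE). *Procr* was at 79.7 to 94.3 CPM in O-WT and 79.3 to 113 in O-NR (0.14 ± 0.12). *Kit* was at 540 to 794 and 732 to 997 CPM (0.27 ± 0.15), and *Ly6a*, which encodes Sca1, at 18.9 to 32.9 and 24.1 to 39.7 CPM (0.29 ± 0.18). *Cd34* and *Flt3* had differences of 0.20 ± 0.13 and −0.11 ± 0.18 with overlapping groups.

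Differences between NR-treated and untreated old HSCs were small, and no transcript passed adjustment for the number tested. A level above 3 CPM in 4 or more of the 8 libraries was asked of a transcript, and of the 17364 that met it, 135 (0.777%) had an unadjusted p-value below 0.01 in edgeR's quasi-likelihood test. Such a transcript is named called, and "rose" and "fell" are kept for it. In O-NR HSCs, 85 rose (0.490% of those tested) and 50 fell (0.288%). None had a Benjamini-Hochberg adjusted p-value below 0.05 in edgeR (the smallest was 0.0876, for *Coro2a*), 705 (4.06%) had an unadjusted p-value below 0.05, and uniform p-values would give 173.6 below 0.01 and 868.2 below 0.05. The number of transcripts called is thus below what uniform p-values give, and each transcript named in what follows is given with its own values. The O-WT and O-NR libraries did not overlap in 460 of the tested transcripts (2.65%), in 61 of the 85 that rose and in 30 of the 50 that fell. The genes that rose did so by small and even steps (median log2 change 0.42, 9 of 85 above 1.5-fold), while those that fell did so by larger ones (median 0.56 in size, 24 of 50 above 1.5-fold). With the 1.5-fold limit that the study's methods also list, 33 transcripts were called, 9 higher and 24 lower, so the balance of directions turned. All 85 that rose and 43 of the 50 that fell are protein-coding. The median library-to-library coefficient of variation was 12.3% in O-WT and 10.7% in O-NR for the transcripts that rose. It was 16.7% and 13.5% for those that fell and 17.5% and 16.1% over all tested transcripts. Choice by a small p-value favours a low spread and groups that do not overlap, so neither is separate evidence for the transcripts called. O-WT library 4 held the highest O-WT value for 30 of the 50 transcripts that fell, and O-NR library 3 the highest O-NR value for 44 of the 85 that rose. Upper quartile scaling turned the split of 85 and 50 into 101 that rose and 102 that fell. Without O-WT library 4, 110 transcripts were called. The count was 244 without O-WT 1, 86 without O-WT 3, 232 without O-NR 2, 66 without O-NR 3 and 85 without O-NR 4. In bulk RNA, fewer cells that carry a transcript and less of it per cell cannot be told apart.

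**Figure D1:**
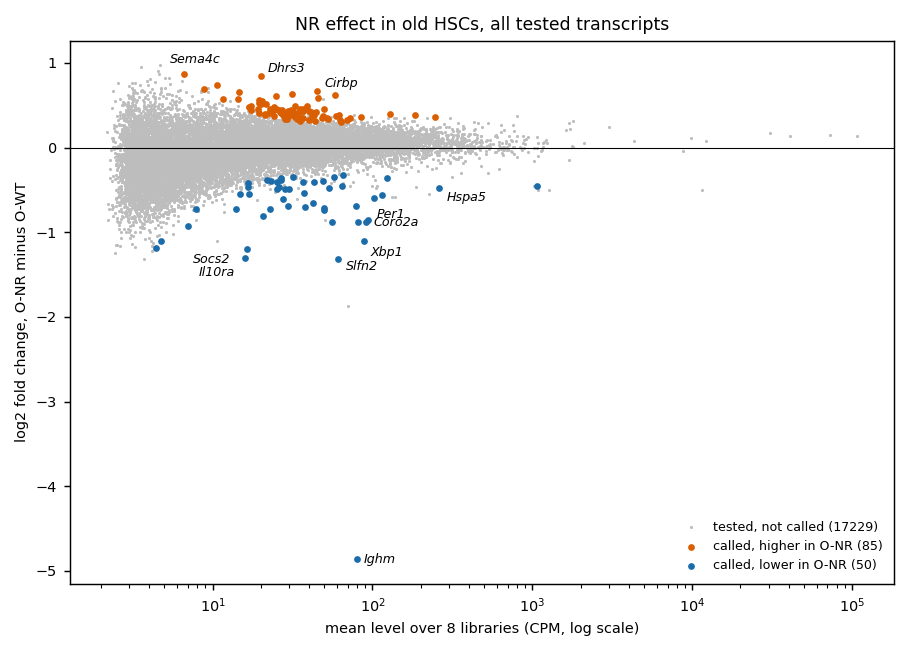
The log2 fold change between O-NR and O-WT HSCs (y axis, O-NR minus O-WT) is plotted against the mean level over the 8 libraries (x axis, CPM on a log scale) for the 17364 tested transcripts. The 85 transcripts that rose (orange) lie close to the upper edge of the grey cloud, while the 50 that fell (blue) include *Ighm*, *Slfn2*, *Il10ra*, *Socs2* and *Xbp1* below −1.

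Some cytosolic chaperone transcripts were lower in O-NR HSCs, none of them after adjustment. The gene lists, here and in what follows, were chosen with earlier results of these data known. The share of a list that was called, or that had 1 sign, is thus a description and not a test. Of all transcripts also tested in cohort 1 of the study, 8410 had a positive and 8838 a negative difference here. The median over all transcripts was −0.01. It was −0.04 with no filter on low counts and 0.05 in one model of 24 libraries. Of 23 tested heat shock genes 4 fell and none rose (17.4% of the list, against 0.777% of all tested transcripts), and 16 of the 23 had a negative difference, with a median of −0.06 against −0.01 over all transcripts. *Dnaja1*, an HSP40 co-chaperone that hands unfolded proteins to HSP70, was at 101, 122, 104 and 163 CPM in O-WT libraries 1 to 4 and at 91.2, 79.0, 76.4 and 76.8 CPM in O-NR libraries 1 to 4. Every O-NR library lay below every O-WT library. *Dnaja1* fell by 0.60 ± 0.14 on the log2 scale (SE, adjusted p = 0.793). *Hsph1*, an HSP110 that recharges HSP70 with ATP, was at 60.2, 114, 88.3 and 156 CPM in O-WT and 62.5, 56.7, 44.8 and 64.0 in O-NR. O-WT 1 lay among the O-NR libraries and O-WT 4 far above them. *Hsph1* fell by 0.88 ± 0.21 (adjusted p = 0.793). *Hspa8*, the constitutive HSP70 and the most abundant transcript of those called, was at 1159, 1044, 1102 and 1626 CPM in O-WT and at 984, 804, 896 and 925 in O-NR. The groups did not overlap, and *Hspa8* fell by 0.45 ± 0.15 (adjusted p = 0.995). *Hspa4l*, another HSP110, fell by 0.32 ± 0.11 (adjusted p = 0.995), from 63.5 to 85.2 CPM in O-WT to 54.7 to 63.3 in O-NR. *Chordc1*, *Ahsa1* and *Stip1*, which serve HSP90, had log2 differences of −0.36 ± 0.14, −0.26 ± 0.11 and −0.28 ± 0.12, with unadjusted p-values below 0.05, and were not called. The HSP90 genes *Hsp90aa1* and *Hsp90ab1* (−0.30 and −0.15), the mitochondrial chaperonin *Hspd1* (0.00) and the heat shock factor *Hsf1* (0.10) were not called either. The number of heat shock genes that fell was 2 without O-WT 4, O-NR 3 or O-NR 4, 7 with upper quartile scaling and 1 in one model of 24 libraries, and *Dnaja1* lost its call in that model. *Hspa8*, *Hspa4l* and the uncalled members are outside the rule for named genes and were picked after their values were seen, as were the other uncalled list members named in what follows, *Tsc22d3*, *Cish*, *Minpp1* and *Rtp4*.

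The ER branch showed a shorter list. Of 31 tested genes of the unfolded protein response and ER chaperones 2 fell (6.45%, against 0.777% of all tested transcripts called). None rose and 20 had a negative difference. *Xbp1* (chr11:5520659-5525893), the transcription factor that ER stress splices into its active form, was at 86.5, 113, 85.5 and 197 CPM in O-WT libraries 1 to 4 and at 67.4, 44.7, 53.7 and 58.5 in O-NR. All O-NR libraries lay below all O-WT libraries. *Xbp1* fell by 1.10 ± 0.22 (adjusted p = 0.365), and by 0.76 when O-WT 4 was left out. *Hspa5* (chr2:34771970-34777547), which encodes the ER HSP70 named BiP, was at 293, 292, 273 and 363 CPM in O-WT and 240, 180, 209 and 248 in O-NR. It fell by 0.48 ± 0.13 (adjusted p = 0.962), with no overlap. Its call was lost when O-WT 4 or O-NR 3 was left out, which left 1 member that fell. The call of *Hspa5* was also lost with looser filters on low counts (none, 1 CPM or filterByExpr) and in one model of 24 libraries. *Hsp90b1*, the ER HSP90, had a difference of −0.34 ± 0.15 (adjusted p = 0.995), and *Ddit3* and *Atf4*, of the PERK branch, had 0.07 ± 0.16 and 0.05 ± 0.12.

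The letters of known response elements were looked for in the 250 bases before the RefSeq start sites (GRCm38.p6, the mm10 build), on both strands, because chaperone genes are textbook targets of such elements. A gene was counted if any of its windows held the element. The ER stress response element (CCAAT and CCACG with 9 bases between them) stood in 1 of the 33 genes with a window among those that fell, *Hspa5*. It stood in 17 of the 12226 tested genes with a window (0.139%). The 3-unit heat shock element (GAA, TTC and GAA with 2 bases between neighbours) stood in 1 of the 33, before a start of *Coro2a*, and in 0.483% of the tested genes. Its 2-unit form (GAANNTTC), which every 3-unit element contains, stood in 6 of the 33 (18.2%, *Coro2a*, *Cxcr4*, *Dnaja1*, *Fosl2*, *Hemgn* and *Rian*). This form stood in 0 of the 69 genes with a window that rose and in 6.31% of the tested genes. The E-box (CACGTG), bound by the clock factors, stood in 4 of the 33 genes that fell (12.1%, *Per1* and *Hsph1* among them). It stood in 8 of the 69 that rose (11.6%) and in 9.2% of the tested genes. A STAT site (TTCNNNGAA) stood in 4 of the 33 (12.1%), in 3 of the 69 (4.35%) and in 7.39% of the tested genes. The cAMP response element (TGACGTCA) stood in 0 of either and in 2.74% of the tested genes. The stretches are shown with the element in capitals, cut where an annotated exon begins. For *Hspa5* and *Dnaja1*, whose element lies in an annotated exon, they are limited to 30 bases. *Coro2a* and *Per1* have 2 starts each with a window and *Dnaja1* has 3. The stretches of *Coro2a* and *Per1* lie inside the annotated gene, before an inner start and not its outermost one.
*Hspa5*, chr2:34772020-34772049, + strand, the element at bases 65 to 47 before the start: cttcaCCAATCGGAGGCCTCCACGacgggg
*Dnaja1*, chr4:40722333-40722362, + strand, bases 124 to 117 before the start: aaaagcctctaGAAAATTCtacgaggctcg
*Coro2a*, chr4:46566459-46566690, − strand, bases 83 to 71 before the start, the element read on the opposite strand: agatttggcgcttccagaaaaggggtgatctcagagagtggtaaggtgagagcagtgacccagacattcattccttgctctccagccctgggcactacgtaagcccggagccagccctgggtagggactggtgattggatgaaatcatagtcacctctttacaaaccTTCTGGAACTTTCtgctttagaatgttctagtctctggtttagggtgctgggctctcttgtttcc
*Per1*, chr11:69098699-69098947, + strand, bases 166 to 161 before the start: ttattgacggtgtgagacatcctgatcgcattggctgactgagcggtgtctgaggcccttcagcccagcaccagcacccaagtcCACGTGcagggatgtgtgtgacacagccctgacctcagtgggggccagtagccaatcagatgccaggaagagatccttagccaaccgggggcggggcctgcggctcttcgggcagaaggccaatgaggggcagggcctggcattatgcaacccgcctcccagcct
A match describes letters and not binding, and a window without a match says nothing of the factor.

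Clock and glucocorticoid-responsive genes were represented by 2 transcripts that fell, and the cold-inducible RNA-binding protein by 1 that rose. They were the calls of 28 tested genes (10.7%, against 0.777% of all tested transcripts). *Per1* (chr11:69095217-69109960), a repressor of the circadian clock that glucocorticoids also induce, was at 166, 89.3, 129 and 96.5 CPM in O-WT and 65.1, 64.2, 69.4 and 67.3 CPM in O-NR libraries. The O-NR libraries lay within a narrow band (66.5 ± 2.35 CPM, SD, n = 4) under every O-WT library (120 ± 35.1). *Per1* fell by 0.86 ± 0.16 (adjusted p = 0.249). *Tsc22d3*, the glucocorticoid-induced leucine zipper, was at 140, 52.0, 112 and 83.1 CPM in O-WT and 55.5, 58.3, 69.9 and 57.0 in O-NR. O-WT 2 lay below all O-NR libraries, and O-WT 1 and 3, the highest for *Per1*, were also the highest here. *Tsc22d3* fell by 0.69 ± 0.21 (adjusted p = 0.995). *Cirbp*, an RNA-binding protein that mild cold induces, was at 51.3, 25.5, 30.3 and 31.3 CPM in O-WT and 51.0, 47.9, 69.7 and 52.6 in O-NR. It rose by 0.67 ± 0.18 (adjusted p = 0.903), and 1 O-WT library lay within the O-NR range. The other 25 members were not called, and of all 28, 19 had a negative difference (median −0.08). *Bhlhe40*, a repressor of the clock, and *Zbtb16*, a glucocorticoid-induced transcription factor, had −0.85 ± 0.31 and −0.53 ± 0.21 with unadjusted p-values below 0.05 and overlapping groups. *Fkbp5*, a further glucocorticoid target, had −0.23 ± 0.14, the core clock genes *Arntl*, *Nr1d1*, *Dbp* and *Per2* had 0.08 ± 0.13, 0.25 ± 0.19, −0.01 ± 0.21 and −0.23 ± 0.16, and *Rbm3*, the other cold-inducible protein, had −0.04 ± 0.16. The number of members that fell was 4 without O-WT 2 and 1 without O-NR 4.

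Single genes of cytokine feedback, homing and cytokine reception fell. *Socs2*, which dampens growth hormone and thrombopoietin signals, was at 12.6, 31.1, 12.8 and 34.6 CPM in O-WT and 11.2, 9.90, 8.13 and 10.8 in O-NR. O-WT 2 and 4 were about level with each other and well above the other O-WT libraries, which lay just over the O-NR range. *Socs2* fell by 1.19 ± 0.29 (adjusted p = 0.793). *Cish*, a related STAT5 target, was at 68.5, 35.4, 47.4 and 137 CPM in O-WT and 39.6, 36.1, 47.3 and 34.6 in O-NR. It fell by 0.87 ± 0.29 (adjusted p = 0.995), with O-WT 2 inside the O-NR range and O-WT 4 highest. *Pim2*, a survival kinase that cytokines induce, was at 48.7, 52.0, 35.4 and 52.1 CPM in O-WT and 31.8, 23.4, 27.1 and 34.0 in O-NR. It fell by 0.70 ± 0.14 (adjusted p = 0.38) without overlap, while its paralog *Pim1* had −0.11 ± 0.18 and *Socs1* and *Socs3* had 0.15 ± 0.24 and −0.10 ± 0.28. *Socs2*, *Cish* and *Pim2* were all that was called among 32 tested genes of the NF-kappaB, Socs and Pim list. That is 9.38%, against 0.777% of all tested transcripts, and 22 of the 32 had negative differences. The NF-kappaB feedback gene *Nfkbia* had −0.41 ± 0.15 (adjusted p = 0.995). The count was 5 without O-WT 2, 2 without O-WT 4, O-NR 2 or O-NR 4, and 6 with upper quartile scaling.

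*Cxcr4* (chr1:128588199-128592293), the receptor through which CXCL12 holds HSCs in the marrow, was at 30.1, 24.4, 32.1 and 28.0 CPM in O-WT and 12.7, 19.0, 21.2 and 16.7 in O-NR. The groups were apart and *Cxcr4* fell by 0.72 ± 0.15 (adjusted p = 0.448). It was the only one of 24 tested cytokine and growth factor receptors to be called, and within 24 niche adhesion and homing genes it stood with *Robo4*, a receptor that anchors HSCs to vessels, which rose by 0.39 ± 0.13 (adjusted p = 0.995) from 32.4 to 43.1 CPM to 37.4 to 55.9 and lost its call under most alternatives. *Il10ra*, a chain of the interleukin 10 receptor, was at 21.2, 14.7, 23.0 and 32.2 CPM in O-WT and 14.8, 9.06, 5.14 and 8.19 in O-NR. It fell by 1.30 ± 0.27 (adjusted p = 0.416), with O-NR 1 level with O-WT 2. *Gfi1*, a repressor that limits HSC division, fell by 0.55 ± 0.18 (adjusted p = 0.995) from 16.2 to 26.9 CPM to 11.8 to 16.6. It was the only one of 26 tested HSC transcription factors called. This call was lost without O-WT 1, O-WT 2, O-NR 2, O-NR 3 or O-NR 4. It was also lost with the looser filters on low counts and in one model of 24 libraries. *Fosl2*, of the AP-1 family, fell by 0.74 ± 0.25 (adjusted p = 0.995), from 34.4 to 105 CPM to 30.9 to 51.8. Without O-WT 3 its difference was −0.38 and it was not called, as it was not without O-NR 2, O-NR 3 or O-NR 4. Upper quartile scaling and DESeq2's Wald test did not call *Fosl2* either. *Slfn2*, a gene that keeps T cells and HSCs quiescent, was at 57.6, 46.1, 38.6 and 207 CPM in O-WT and 36.2, 22.9, 36.7 and 45.1 in O-NR. O-WT 4 carried most of this difference, since *Slfn2* fell by 1.32 ± 0.40 (adjusted p = 0.995) with that library and had a difference of −0.43 and no call without it. DESeq2's Wald test did not call *Slfn2* either.

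Outside the lists, the transcript with the smallest p-value was *Coro2a* (chr4:46536937-46602202), a coronin that binds actin and is also part of the NCoR repressor complex. It was at 137, 113, 107 and 119 CPM in O-WT and 55.5, 56.7, 63.8 and 82.2 in O-NR. The lowest O-WT library lay above the highest O-NR library, and *Coro2a* fell by 0.88 ± 0.13 (adjusted p = 0.0876). *Trim14* (chr4:46493781-46536141) is an antiviral signalling adaptor. Both genes lie on the minus strand, and 795 bases separate the annotated 3' end of *Coro2a* from the start of *Trim14*. *Trim14* was at 77.1, 50.1, 56.4 and 67.0 CPM in O-WT and 47.9, 39.6, 48.6 and 43.8 in O-NR. It fell by 0.48 ± 0.13 (adjusted p = 0.962) with no overlap and lost its call without O-WT 1. The call was also lost with the looser filters on low counts and in one model of 24 libraries. *Dynll1*, a dynein light chain, fell by 0.69 ± 0.13 (adjusted p = 0.249), from 31.4 to 42.6 CPM to 21.0 to 26.5. *Banp*, a nuclear matrix protein that binds CpG-rich promoters, fell by 0.66 ± 0.13 (adjusted p = 0.38), from 47.4 to 59.0 CPM to 27.5 to 41.8. *Hexim1*, which holds the elongation factor P-TEFb inactive, fell by 0.49 ± 0.12 (adjusted p = 0.823), from 27.8 to 38.3 CPM to 23.1 to 27.8. Its call was lost with no filter on low counts, with filterByExpr and in one model of 24 libraries. In *Coro2a*, *Trim14*, *Dynll1*, *Banp* and *Hexim1* every O-NR library lay below every O-WT library, as it did in 162 transcripts of those tested (0.933%). *Trim14* apart, these genes were named by a rule that asked for groups that do not overlap. The separation is thus set by the choice.

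**Figure D2:**
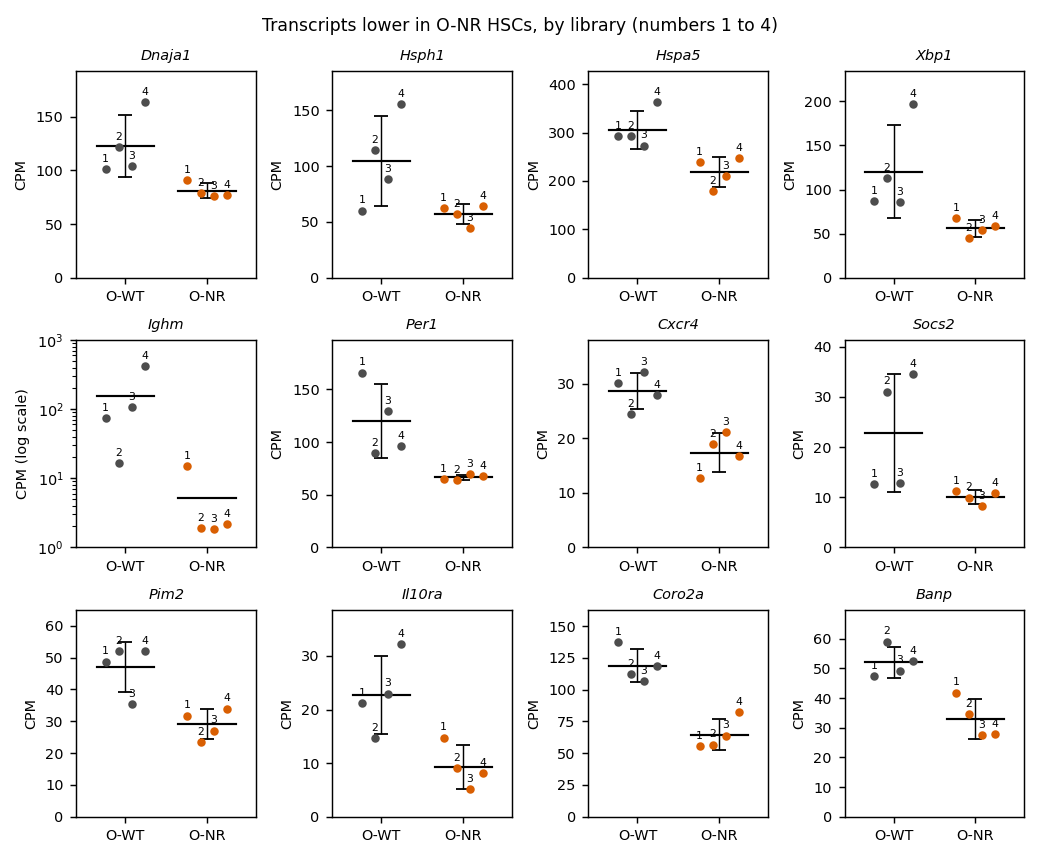
Levels in CPM (y axis, log scale for *Ighm* alone) of 12 transcripts that fell are plotted for each numbered O-WT (grey) and O-NR (orange) library, with the group mean as a line and the SD as a bar (mean only for *Ighm*). *Per1* and *Socs2* show narrow O-NR groups under scattered O-WT groups, and O-WT library 4 is the highest O-WT point for *Dnaja1*, *Hsph1*, *Hspa5*, *Xbp1*, *Ighm*, *Socs2*, *Pim2* and *Il10ra*.

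*Ighm*, a transcript of B and plasma cells, had the largest difference of the 135 transcripts called. *Ighm* (chr12:113418558-113422730), the constant region of immunoglobulin M, was at 75.2, 16.6, 106 and 420 CPM in O-WT libraries and at 15.1, 1.90, 1.84 and 2.15 in O-NR libraries, that is, between 18 and 6010 reads. The highest O-NR library lay just under the lowest O-WT library. *Ighm* fell by 4.86 ± 0.81 on the log2 scale (adjusted p = 0.15). Other B and plasma cell transcripts were uneven. *Igkc*, the kappa light chain, was at 62.8, 18.7, 88.3 and 276 CPM in O-WT and 81.3, 0, 38.2 and 1.02 in O-NR (−1.87 ± 0.88, adjusted p = 0.995), and *Jchain*, which joins secreted antibodies, at 5.58 to 28.5 and 2.00 to 12.1 CPM (−1.11 ± 0.49, adjusted p = 0.995). *Cd79a* and *Mzb1*, which define B and plasma cells, averaged 1.16 and 0.29 CPM in O-WT and 1.30 and 0.39 in O-NR. Summed over these markers and *Ms4a1*, which encodes CD20, and scaled by library totals alone, the level was 61.8 to 722 CPM in O-WT and 14.5 to 113 in O-NR (two-sided exact permutation test, p = 0.0571), and summed over the 393 immunoglobulin gene symbols it was 240, 260, 427 and 1010 CPM in O-WT and 278, 163, 144 and 107 in O-NR. O-WT 4 was the highest in both sums and the groups overlapped in both. Within the B and plasma cell list 2 of 16 tested genes fell (*Ighm* and *Xbp1*) and 14 were negative. The share called was 12.5%, against 0.777% of all tested transcripts. *Xbp1* and *Ighm* were both highest in O-WT 4, but the order of the other O-WT libraries differed, and *Xbp1* is also a plasma cell transcript. The part of B and plasma cell RNA in the fall of *Xbp1* was not tested. The number of list members that fell was 4 without O-WT 2 or O-NR 1. Markers of neutrophils, T and NK cells, monocytes and megakaryocytes overlapped between the groups in their summed levels (two-sided exact permutation tests, p = 0.886, 0.771, 0.657 and 0.914). Red cell markers summed to 3.04 to 7.47 CPM in O-WT and 4.11 to 13.9 in O-NR.

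Transcripts that rose included mitochondrial and metabolic enzymes. *Pccb* (chr9:100982032-101034898), the beta subunit of the carboxylase that turns propionyl-CoA from branched-chain amino acids and odd-chain fatty acids into a TCA cycle intermediate, was at 19.2, 17.2, 17.3 and 17.5 CPM in O-WT and 24, 26.9, 26.8 and 24.5 in O-NR. Both groups were tight and apart. *Pccb* rose by 0.52 ± 0.12 (adjusted p = 0.725). *Acadsb*, which oxidizes the breakdown product of isoleucine, was at 21.9, 32.0, 24.6 and 30.5 CPM in O-WT and 39.3, 34.5, 40.9 and 38.7 in O-NR. It rose by 0.49 ± 0.13 (adjusted p = 0.903) with no overlap. These were 2 of 26 tested genes of propionate and branched-chain amino acid catabolism (7.69%, against 0.777% of all tested transcripts called). None of the 26 fell and 18 were positive (median 0.12). *Pccb* and *Acadsb* were called in every alternative fit with no fold limit. *Bckdhb*, the E1 beta subunit of the branched-chain ketoacid dehydrogenase, had 0.39 ± 0.15 without a call, and its groups also did not overlap. *Echs1*, the enoyl-CoA hydratase of fatty acid and valine oxidation, rose by 0.39 ± 0.12 (adjusted p = 0.995), from 19.3 to 27.9 CPM to 30 to 33.7, as the only call of 35 tested fatty acid oxidation and TCA cycle genes. Of those 35, 32 had a positive difference, with a median of 0.10 against −0.01 over all transcripts. Whether the signs go together was not tested. *Idh3a* and *Cs*, of the TCA cycle, had 0.27 ± 0.10 and 0.25 ± 0.11 without a call. *Echs1* lost its call without O-WT 3, O-NR 1, O-NR 2 or O-NR 3, with the looser filters on low counts and in one model of 24 libraries.

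Of 31 tested glycolytic enzymes and transporters 3 rose (9.68%, against 0.777% of all tested transcripts called) and none fell. *Pdk1*, the kinase that keeps pyruvate out of mitochondria and is needed for HSC quiescence, was at 57.5, 49.3, 49.2 and 58.0 CPM in O-WT and 66.1, 69.6, 75.3 and 69.0 in O-NR. It rose by 0.39 ± 0.10 (adjusted p = 0.903) without overlap. *Slc16a1*, the lactate and pyruvate transporter MCT1, rose by 0.43 ± 0.13 (adjusted p = 0.995), from 23.0 to 28.4 CPM to 28.8 to 39.0. *Minpp1*, which can dephosphorylate a glycolytic intermediate, rose by 0.41 ± 0.14 (adjusted p = 0.995). None of these 3 is a core enzyme of the glycolytic chain. Of the 31, 21 had a positive and 10 a negative difference (median 0.12). The 4 uncalled members with an unadjusted p-value below 0.05 were all negative, *Slc16a3* with −0.83 ± 0.34, the enolase *Eno3* with −0.60 ± 0.24, *Pfkfb3* with −0.45 ± 0.17 and *Slc2a1*, the glucose transporter GLUT1, with −0.31 ± 0.14. The groups did not overlap for *Slc16a3* and *Eno3*. The number that rose was 0 with no filter on low counts, in one model of 24 libraries and without O-NR 3, and 1 without O-WT 3 or O-NR 4.

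Amino acid transport and RNA modification gave 3 more. *Slc7a5*, the transporter LAT1 that brings leucine and other large neutral amino acids into the cell, was at 16.1, 14.9, 16.2 and 15.8 CPM in O-WT and 22.4, 23.5, 19.7 and 27.9 in O-NR. The O-WT libraries were nearly level with each other, and *Slc7a5* rose by 0.57 ± 0.14 (adjusted p = 0.793). It was the only one of 34 tested amino acid transport and ATF4 target genes to be called, and *Slc3a2*, its partner chain, had 0.15 ± 0.13. *Mettl1*, the methyltransferase that places m7G in tRNAs, was at 18.2, 24.1, 14.9 and 22.2 CPM in O-WT and 33.4, 28.0, 27.6 and 31.6 in O-NR. It rose by 0.61 ± 0.15 (adjusted p = 0.793) with no overlap. *Trmt6*, of the tRNA m1A methyltransferase, rose by 0.42 ± 0.14 (adjusted p = 0.995), from 17.9 to 26.6 CPM to 27.3 to 35.5, and lost its call under most alternatives. They were 2 of 55 tested tRNA and rRNA modification enzymes (3.64%, against 0.777% of all tested transcripts called). *Nsun2*, *Trmt10c* and *Nsun3*, at 0.35 ± 0.12, 0.30 ± 0.11 and 0.38 ± 0.14, were next in order of p-value. The count of 2 was 1 without O-WT 2, O-NR 1 or O-NR 4. None of 67 tested Myc and ribosome biogenesis genes was called by edgeR, with 53 positive (median 0.07), 14 negative and 4 at an unadjusted p-value below 0.05, and none of 40 aminoacyl-tRNA synthetases was, with 1 below 0.05.

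Further transcripts rose without a list. *Mtx3*, a metaxin of the mitochondrial outer membrane, rose by 0.44 ± 0.11 (adjusted p = 0.793), from 27.5 to 32.7 CPM to 36.7 to 44.8. *Dhrs3*, which turns retinal back into retinol, was at 19.2, 9.40, 13.9 and 14.7 CPM in O-WT and 22.4, 24.1, 36.6 and 20.1 in O-NR and rose by 0.85 ± 0.21 (adjusted p = 0.793). *Trib2*, a pseudokinase that acts on C/EBP-alpha, rose by 0.63 ± 0.17 (adjusted p = 0.903), from 16.4 to 32.6 CPM to 34.8 to 42.6. *Sema4c*, at 3.32 to 5.56 CPM in O-WT and 7.6 to 9.59 in O-NR, had the largest rise (0.87 ± 0.27, adjusted p = 0.995) and rested on 41 to 123 reads. *Ass1*, the arginine-making argininosuccinate synthase, rose by 0.74 ± 0.22 (adjusted p = 0.995), and *Spred2*, *Zbtb25*, *Arl2bp*, *Bend3*, *Proser1* and *Epdr1* rose by 0.42 to 0.69. *Sema4c* lost its call without O-WT 1, O-NR 2 or O-NR 3, *Ass1* without O-WT 3, O-NR 2 or O-NR 4, and *Epdr1* without O-WT 2, O-WT 4, O-NR 1 or O-NR 4. In one model of 24 libraries *Arl2bp*, *Bend3*, *Proser1*, *Spred2* and *Epdr1* lost theirs. *Bend3*, *Proser1* and *Spred2* lost theirs with no filter on low counts, *Spred2* also with filterByExpr, and *Sema4c* with upper quartile scaling. In all the genes of these sentences the 4 O-NR libraries lay above the 4 O-WT libraries, as they did in 298 of the tested transcripts (1.72%). *Sema4c*, *Ass1* and *Epdr1* apart, these genes were named by a rule that asked for groups that do not overlap. The separation is thus set by the choice. Of the 43 tested interferon-stimulated genes, *Rsad2*, the antiviral enzyme viperin, rose by 0.48 ± 0.13 (adjusted p = 0.903) and *Rtp4* by 0.42 ± 0.14 (adjusted p = 0.995), and *Trim14* fell as above. *Rsad2* was at 18 to 21.8 CPM in O-WT and 25.6 to 34.1 in O-NR. It lost its call without O-NR 4 and in one model of 24 libraries.

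**Figure D3:**
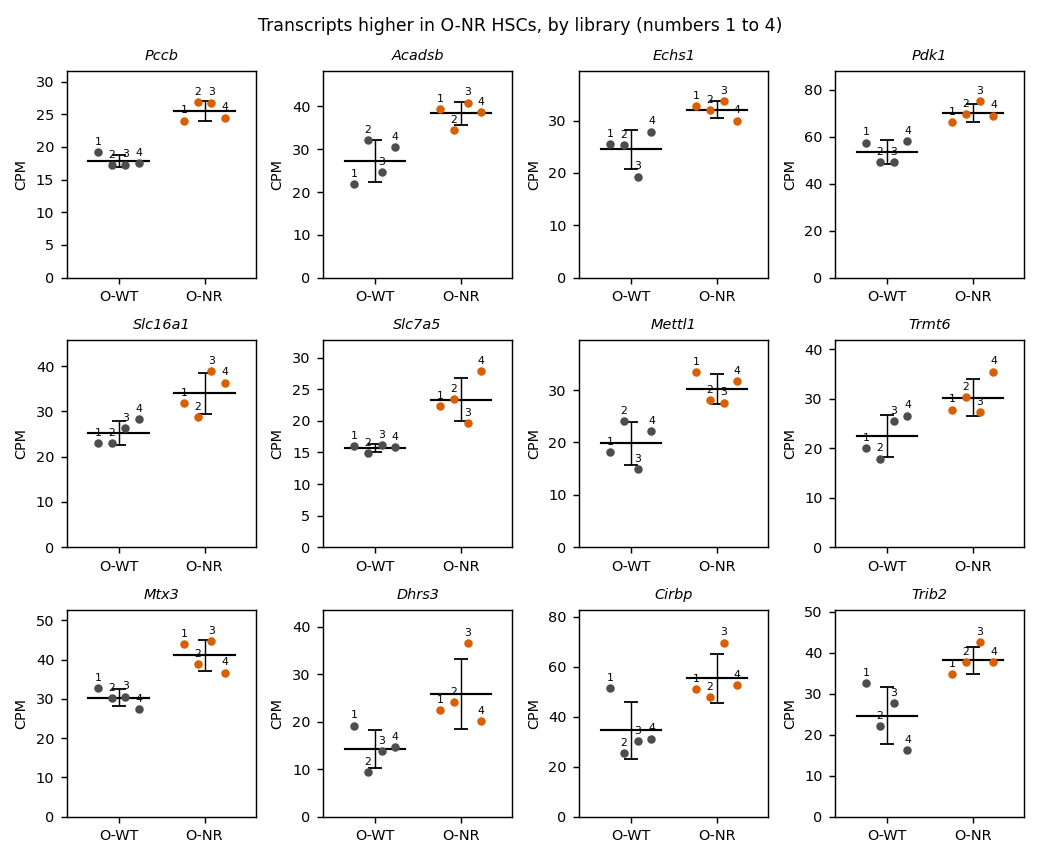
Levels in CPM (y axis) of 12 transcripts that rose are plotted for each numbered O-WT (grey) and O-NR (orange) library, with the group mean as a line and the SD as a bar. The groups are apart for all but *Cirbp*, whose O-WT library 1 (51.3 CPM) lies within the O-NR range, and the distance between groups is small beside the level for *Pdk1* and *Echs1*.

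The steps that turn NR into NAD+ did not stand out. None of 22 tested NAD synthesis and NR entry genes and none of 26 tested NAD consuming enzymes was called by edgeR, and 1 of each list had an unadjusted p-value below 0.05, *Slc25a51*, the mitochondrial NAD+ carrier (0.24 ± 0.10), and *Parp3* (−0.35 ± 0.16). *Nmrk1*, the NR kinase, was at 11.5, 11.2, 12.2 and 11.1 CPM in O-WT and 12.8, 12, 11.3 and 8.6 in O-NR (−0.04 ± 0.18). *Nampt*, which recycles nicotinamide, was at 47.3 to 59.5 and 57.4 to 70.1 CPM (0.13 ± 0.11). *Nmnat1* of the nucleus had −0.14 ± 0.20, *Nmnat3* of mitochondria 0.26 ± 0.16, the nucleoside transporter *Slc29a1* 0.21 ± 0.18 and the phosphorylase *Pnp* 0.10 ± 0.14. *Sirt1*, *Sirt3*, *Cd38* and *Parp1* had 0.10, 0.19, 0.09 and 0.01, with standard errors of 0.10 to 0.15. At these standard errors a small change of any of them was not detectable.

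Mitochondrial transcripts had positive differences without a call. Of the 13 protein-coding genes of the mitochondrial genome 8 were tested, all 8 had a positive difference (median 0.29) and 6 had an unadjusted p-value below 0.05 in edgeR, among them *mt-Nd1*, a complex I subunit, at 658 to 798 CPM in O-WT and 786 to 1057 in O-NR (0.37 ± 0.13). These genes come from polycistronic transcripts and are not independent. The share of all counted reads from the mitochondrial genome was 10.4% to 11.1% in O-WT and 10.7% to 13.0% in O-NR. A two-sided exact permutation test over 70 regroupings gave p = 0.114. None of 79 nuclear respiratory chain subunits (55 positive), 76 mitochondrial ribosomal protein genes (44 positive), 25 mitochondrial biogenesis and dynamics genes (16 positive) or 30 mitophagy and autophagy genes (20 positive) was called, and these lists held 2, 2, 0 and 1 members with a p-value below 0.05. Of 30 tested genes known to rise in old HSCs none was called, 16 were positive and 14 negative (median 0.06), and 5 had a p-value below 0.05, *Selp*, *Sbspon*, *Jam2* and *Ampd3* above 0 and *Nupr1* below it. None of 23 lymphoid priming genes, 19 megakaryocyte and platelet genes and 44 cell cycle genes was called, with 0, 1 and 3 members below 0.05. The lymphoid priming genes had 12 positive and 11 negative differences (median 0.00). Of 13 tested myeloid program genes *Gfi1* alone was called (7.69%, against 0.777% of all tested transcripts). It fell, and 9 of the 13 were negative (median −0.16). Over all 39 lists, 1135 transcripts were tested and 29 were called (2.56%, against 0.777% of all tested transcripts). The other 106 of the 135 calls lay in no list.

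**Figure D4:**
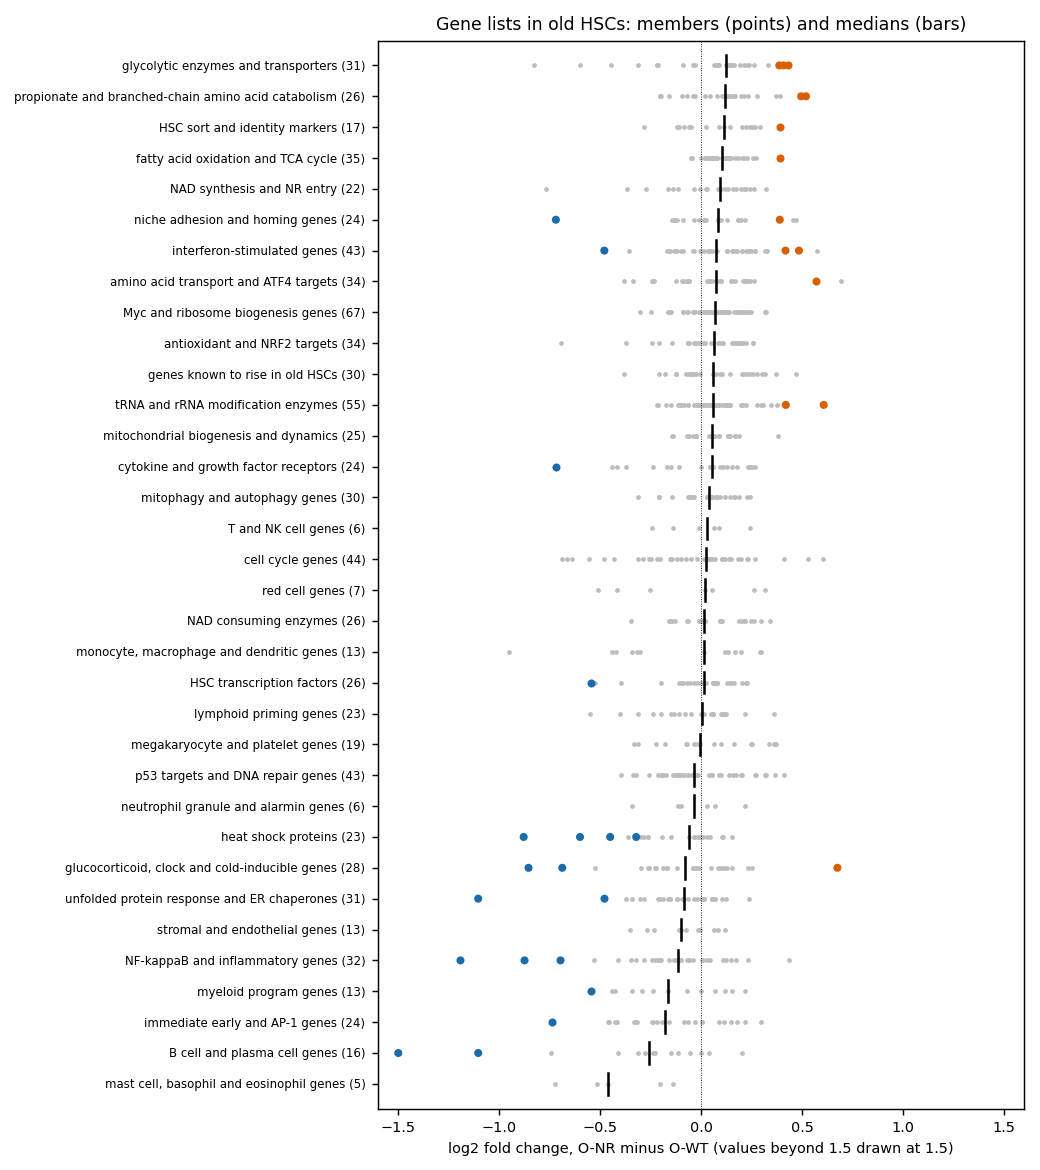
Each row is a gene list (number of tested members in brackets) and each point the log2 fold change of a member between O-NR and O-WT HSCs, with the members that rose in orange, those that fell in blue and the median as a black bar. The mitochondrial genome, respiratory chain, ribosomal protein and aminoacyl-tRNA synthetase lists, with no call, are not drawn. Medians lie close to 0 for most lists, and the members that fell lie toward the left edge of the heat shock, unfolded protein response, clock and NF-kappaB lists.

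The NR effect in HSCs was set against the same contrast in the other cells. CLP and GMP libraries carry the same replicate numbers as the HSC libraries and may come from the same mice, so their values are given side by side. In CLPs 82 of 19909 transcripts were called (0.412%) and in GMPs 133 of 13486 (0.986%). *Hsph1* fell by 1.04 ± 0.23 in CLPs and by 0.77 ± 0.18 in GMPs, beside 0.88 in HSCs. *Dnaja1*, *Hspa8* and *Hspa5* fell by 0.45 ± 0.09, 0.51 ± 0.11 and 0.31 ± 0.10 in GMPs and had −0.41 ± 0.21, −0.55 ± 0.29 and −0.31 ± 0.23 in CLPs without a call. *Cirbp* rose by 0.76 ± 0.24 in CLPs and 0.62 ± 0.15 in GMPs, beside 0.67. *Tsc22d3* fell by 1.04 ± 0.22 in CLPs and had −0.24 ± 0.11 in GMPs, and *Cxcr4* fell by 0.28 ± 0.08 in GMPs and had −0.16 ± 0.21 in CLPs. *Dynll1* and *Banp* fell by 0.51 ± 0.08 and 0.75 ± 0.12 in GMPs and had −0.42 ± 0.21 and −0.44 ± 0.19 in CLPs without a call. *Slc7a5* rose by 0.62 ± 0.20 in CLPs and had 0.16 ± 0.10 in GMPs, and *Pdk1* rose by 0.33 ± 0.08 in GMPs. The difference between cell types was tested as an interaction. It had a p-value below 0.01 for 7 of the 135 transcripts against CLPs (91 of 22573 tested, 0.403%) and for 6 against GMPs (33, 0.146%). The 135 were chosen by the same HSC values that enter the interaction. A larger share among them is thus partly set by that choice and does not show an effect particular to HSCs. For *Ighm* alone was it below 0.05 after adjustment (adjusted p = 7.14e-05 against CLPs and 0.000388 against GMPs), with *Ighm* at a log2 difference of 0.24 in CLPs and −0.02 in GMPs. With the 24 libraries scaled together, *Ighm* averaged 476 ± 128 CPM in CLPs, 59.4 ± 31.7 in GMPs and 77.4 ± 140 in HSCs (SD). Whether the HSC difference arose in HSCs or in B and plasma cell RNA was not tested. *Coro2a* had 0.28 ± 0.22 in CLPs and 0.03 ± 0.09 in GMPs, beside −0.88 in HSCs, and *Socs2* had −0.12 ± 0.26 and 0.33 ± 0.33 beside −1.19.

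Cohort 1 of the same study holds 2 O-WT and 4 O-NR libraries of HSCs that share no library with cohort 2. The cohort 1 fit also held 3 libraries of HSCs after NR withdrawal and asked for more than 3 CPM in 2 or more libraries. None of the 135 transcripts had a p-value below 0.05 there, where 182 of 33350 transcripts (0.546%) did and 16 (0.0480%) were called. Of the 85 that rose in cohort 2, 13 (15.3%) had the same sign in cohort 1, where 20.7% of all transcripts positive in cohort 2 did, and of the 50 that fell 33 (66.0%) had the same sign, where 54.1% of all negative transcripts did. The transcripts tested in both cohorts had a median log2 difference of −0.09 in cohort 1, and its standard errors were wide. The cohort 1 libraries were also uneven. Olfactory and vomeronasal receptor genes summed to 13840 and 13740 CPM in O-NR 1 and 2 and to 5390 to 8731 in its other O-NR and O-WT libraries. In the cohort 2 HSC libraries they summed to 1441 to 4494 CPM. *Per1* had −1.16 ± 0.65, *Il10ra* −0.75 ± 0.41 and *Coro2a* −0.51 ± 0.70, in the direction of cohort 2, while *Cirbp* had −0.66 ± 0.64 and *Socs2* 0.19 ± 0.26, in the opposite one. The difference between cohorts had a p-value below 0.01 for 6 of the 135 transcripts, among them *Ighm*, *Socs2* and *Dhrs3* (35 of 26482 tested, 0.132%). None of them was adjusted below 0.05 in edgeR's test, where 467 transcripts had an unadjusted p-value below 0.05. Here too the cohort 2 values that chose the 135 enter the test, so the 2 shares are not alike.

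**Figure D5:**
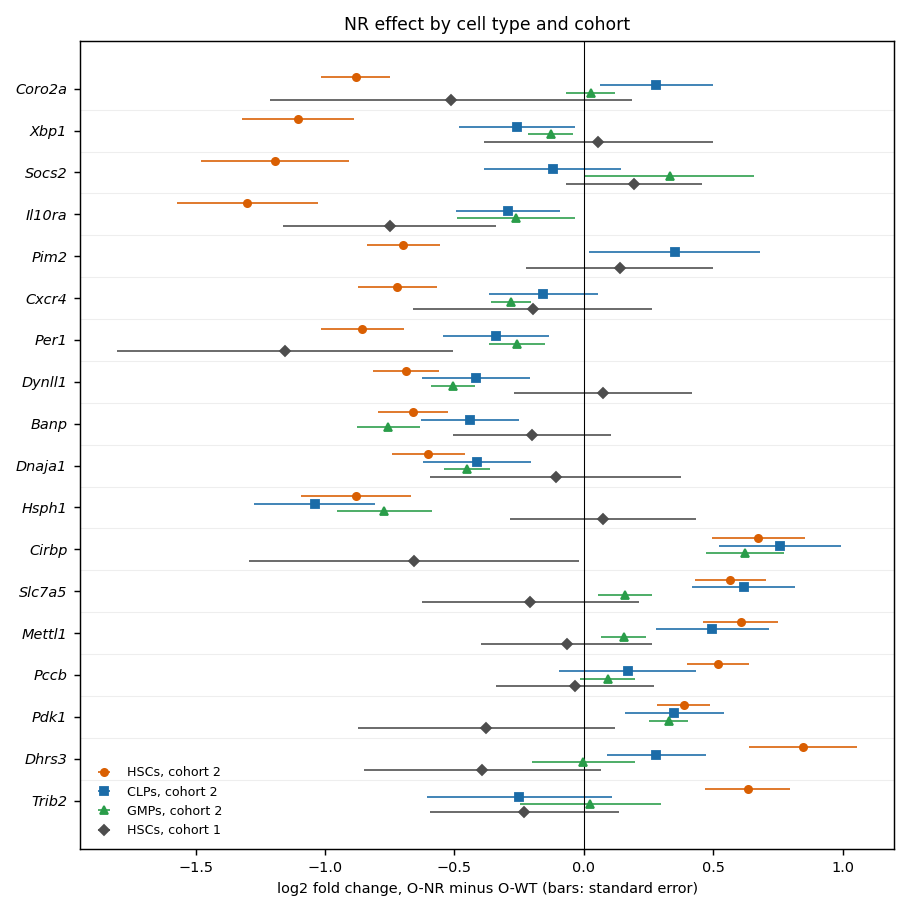
The log2 fold change between O-NR and O-WT (x axis, bars are standard errors) is given for 18 transcripts in HSCs, CLPs and GMPs of cohort 2 and in HSCs of cohort 1 (a missing point was not tested there). *Hsph1*, *Dnaja1*, *Banp* and *Cirbp* have similar values in the 3 cell types of cohort 2, *Coro2a*, *Socs2*, *Il10ra* and *Pim2* lie farther from 0 in HSCs of cohort 2 than in CLPs and, where tested, GMPs, and cohort 1 has the widest bars for most transcripts.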

How the data were processed

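Total RNA of sorted HSCs was sequenced, and the authors trimmed reads with cutadapt through Trim Galore, aligned them to mm10 with STAR and Gencode M22 and counted them per gene with featureCounts, so the deposited values are raw read counts per gene symbol and sample. The versions of STAR and featureCounts, the strand setting and the treatment of multimapping reads are not given in the sources used here, and overlapping or near-identical genes (immunoglobulin and heat shock genes among them) are therefore uncertain. Positions were taken from Gencode M21 by symbol (54402 of 55376 symbols matched 1 position). Samples were grouped by the labels. Transcripts above 3 CPM in at least 4 of 8 libraries were tested with TMM scaling and quasi-likelihood tests in edgeR 4.0.16 (R 4.3.3), called at an unadjusted p-value below 0.01, which the study's methods list beside a 1.5-fold limit (used here as an alternative), with Benjamini-Hochberg adjustment over all tested transcripts beside it. Differences of the NR effect between cell types or cohorts were interaction terms. The scripts were tested on simulated data. Named genes were, per direction, up to 12 called transcripts with the smallest p-value and groups that did not overlap and up to 5 with the largest change, up to 2 called members per gene list, and the sort antigens and NR to NAD+ steps. Members and lists were chosen with earlier results of these data known. Alternatives were other scalings, filters, DESeq2 1.42.0, a replicate block, 1 RUVr factor, a model of 24 libraries, a fold limit and leaving out each library. Cohort 1 and the other cell types entered these interactions and, for the other cell types, the model of 24 libraries, and are otherwise set side by side. Motifs were read from RefSeq promoter windows. One B cell marker is not reported here.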

Additional observations from a re-analysis of the deposited data

Results flagged for a closer look

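In 7 of 122 groups of 4 libraries 1 library stood apart from the others by Dixon's test, where 6.1 would be expected if 1 in 20 groups did. *Ighm* was at 15.1 CPM in O-NR 1 and at 1.84 to 2.15 in the other O-NR libraries. *Slfn2* was at 207 CPM in O-WT 4 against 38.6 to 57.6, and *Hexim1* was at 27.8 in O-WT 2 against 37.5 to 38.3. O-NR 1 was also high for *Epdr1* (13.1 CPM against 10 to 10.3) and *Fosl2* (51.8 against 30.9 to 33.9), and O-NR 4 for *Rsad2* (34.1 against 25.6 to 27) and *Nampt* (70.1 against 57.4 to 59.3).

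The NR effect differed between cell types or cohorts, at an unadjusted p-value below 0.01 of the interaction term, for these named genes. All of them were named for the cohort 2 HSC values that also enter these terms. In HSCs less CLPs, the log2 difference of the effect was −1.17 for *Coro2a*, −5.12 for *Ighm*, −1.03 for *Pim2*, −1.03 for *Il10ra* and −1.05 for *Socs2*. In HSCs less GMPs it was −0.85 for *Coro2a*, −4.80 for *Ighm*, −1.44 for *Socs2* and −1.31 for *Slfn2*. In cohort 2 less cohort 1 HSCs it was −4.87 for *Ighm*, −1.38 for *Socs2*, 1.25 for *Dhrs3* and −2.20 for *Slfn2*.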

How the results depend on the processing

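None of the 42 named genes that were called changed direction under the alternatives run, while *Slamf1*, *Il7r*, *Nmrk1* and *Nmnat1*, which were not called, had differences on both sides of 0. Of the 42, 27 kept the call when each library was left out in turn, 22 under the 9 other fits and 20 under all 17. Beside 135 transcripts called in edgeR (85 higher, 50 lower, 0 with an adjusted p-value below 0.05), upper quartile scaling called 203 (101 higher, 102 lower, 1 adjusted), no filter on low counts 283 (96, 187 and 39, of which 26 were immunoglobulin symbols), a limit of 1 CPM 108 (52, 56 and 1), filterByExpr 110 (52, 58 and 1), DESeq2's Wald test 157 (92, 65 and 4), 1 model of 24 libraries 92 (36, 56 and 1), a fold change above 1.5 33 (9, 24 and 0) and 1 RUVr factor 622 (372, 250 and 21). The share of lower calls moved from 37% to between 50.2% and 66.1% with upper quartile scaling, the looser filters and the model of 24 libraries. Leaving out 1 library gave 66 to 244 called, 30 to 152 higher, 36 to 125 lower and 0 to 7 adjusted. The cause was not tested.

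With the replicate block 247 were called (153 higher, 94 lower, 10 adjusted). Same-numbered O-WT and O-NR libraries deviated together in only some numbers (correlations of −0.353 to 0.651, with 1 of 4 O-WT and 2 of 4 O-NR libraries closest to their own number), so the number was not taken as a pair.

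The difference of the NR effect between HSCs and CLPs was called in 91 transcripts, and in 596 with no filter. Between HSCs and GMPs it was 33, with 217 without a filter, 61 with the block and 27 to 90 leaving out 1 library. The difference of the NR effect between cohort 2 and cohort 1 HSCs was called in 35, with 235 without a filter, 4331 with the block and 7 to 97 leaving out 1 library. With 4 libraries a group, a two-sided exact permutation test cannot go below 0.0286, and *Gm32122*, *Sema4c*, *Il7r* and *Slc16a3* rest on low levels (group means of 2.70 to 8.63 CPM).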

Other observations

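Of the 135 transcripts called, 106 were in none of the gene lists, and the following were picked after their values were seen. *Sfxn1*, the mitochondrial serine carrier that feeds one-carbon metabolism, was at 62.1, 61.7, 60.3 and 69.1 CPM in O-WT and at 80.7, 78.9, 80.1 and 83.9 in O-NR. The groups were tight and apart, and *Sfxn1* rose by 0.35 ± 0.10 (SE, adjusted p = 0.962). *Slc43a2*, a transporter of large neutral amino acids as is *Slc7a5*, rose by 0.43 ± 0.13 (adjusted p = 0.995), and *Hprt*, the purine salvage enzyme, by 0.37 ± 0.11 (adjusted p = 0.995).

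Immune genes outside the lists went both ways. *Ltb*, a lymphotoxin chain, fell by 0.49 ± 0.13 (adjusted p = 0.903) and the cytokine *Il15* by 0.42 ± 0.14 (adjusted p = 0.995), while *Runx3*, a transcription factor of lymphoid and myeloid cells, rose by 0.35 ± 0.12 (adjusted p = 0.995). *Rian*, a maternally expressed imprinted long RNA, was at 63.9 to 80.5 CPM in O-WT and 42.7 to 62.9 in O-NR and fell by 0.45 ± 0.13 (adjusted p = 0.995).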
